A study of Mus musculus with 12 samples.

Results

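The tRNA-Glu entries are the glutamate tRNAs of a profile of pseudouridine in mouse hematopoietic stem and progenitor cells. All entries whose name starts with tRNA-Glu were taken, with the anticodons CTC and TTC, and entries with identical sequence and values were counted once. This gave 19 of the 404 deposited entries, 11 with CTC and 8 with TTC, and 6 of the 213 distinct tRNAs. The 12 libraries were made from small RNA of wild-type cells, and all of that RNA was demethylated with AlkB enzymes. They form 4 groups of 3, which are old cells with CMC, old cells in BEU buffer without CMC, young cells with CMC and young cells in BEU buffer without CMC. Ages, strain and the number of mice are not given in the labels, so p-values measure only how far these libraries vary, and that variation may be technical. The tables hold tRNA only, so markers of the cell type could not be checked.

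Pseudouridine is an isomer of uridine made within RNA by pseudouridine synthases, and tRNA carries it at fixed positions. CMC binds uridine, guanosine and pseudouridine, and after alkali it stays on pseudouridine, where it halts reverse transcription. A stop rate that is higher with CMC than in BEU buffer therefore marks a candidate pseudouridine. In mammals PUS7 modifies position 13 in the D arm, PUS1 modifies positions 27 and 28 in the anticodon stem, TRUB1 modifies position 55 in the T loop, and PUS10 modifies position 54 of some tRNAs. The synthase of position 32 in the anticodon loop is known from yeast, and the title of the study names pseudouridine synthase 10.

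The sequences below are those of the deposited rows, written as DNA from the 5′ end, for 2 of the 5 entries with a called base. They are shown because they hold the called T13, T32 and T55 and differ at few bases, so that reads of one entry can fit the other. Capitals mark the T bases called as CMC-dependent stops at either age.
tRNA-Glu-TTC-1-1: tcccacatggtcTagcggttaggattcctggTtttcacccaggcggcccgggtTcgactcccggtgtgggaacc
tRNA-Glu-TTC-2-1: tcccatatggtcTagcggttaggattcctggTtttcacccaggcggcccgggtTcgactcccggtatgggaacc

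Substitutions are counted from 1 at the 5′ end of the entry. From tRNA-Glu-CTC-1-1 to tRNA-Glu-CTC-2-1 the only changes were C27T and C49T. From tRNA-Glu-CTC-1-1 to tRNA-Glu-TTC-3-1 they were T19C and C34T, the second of which changes the first anticodon base, so this TTC entry has the body of a CTC entry. From tRNA-Glu-TTC-1-1 to tRNA-Glu-TTC-2-1 they were C6T and G66A, whereas tRNA-Glu-CTC-1-1 and tRNA-Glu-TTC-1-1 differ at 15 bases. The distinct entry tRNA-Glu-CTC-1-1 stands for 9 deposited entries, tRNA-Glu-TTC-1-1 for 4, tRNA-Glu-TTC-2-1 and tRNA-Glu-TTC-3-1 for 2 each, and tRNA-Glu-CTC-2-1 and tRNA-Glu-CTC-5-1 for 1 each. The rows of tRNA-Glu-CTC-5-1 skip the middle of the molecule. RefSeq lists 20 tRNA-Glu genes of 72 bases on 10 chromosomes, 12 with CTC and 8 with TTC, under symbols that match none of the entry names, so no coordinates are given.

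Below, a base is named by its letter and its standard tRNA position, as in T13. The standard scheme departs from the count along the entry in the D loop, where positions 20 and 20a are bases 19 and 20, and in the T loop, where positions 54 and 55 are bases 53 and 54. Coverage is the deposited number of reads over a base, and the stop rate is the percent of them that end there. The rise is the CMC stop rate minus the BEU stop rate of the same age and replicate number, in percentage points. A base was tested with coverage of at least 20 in all 12 libraries, and called where the adjusted p was under 0.05, the 3 pairs all rose and their mean rise reached 10 points. Adjusted p-values come from the quasi-likelihood test of edgeR, with the Benjamini-Hochberg method over all tRNAs, and errors of rises are SD over 3 pairs unless given as SE.

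Depth is the first limit. The highest coverage per tRNA, summed over the 213 tRNAs, was 218695 to 510898 in old CMC libraries, 533736 to 1061426 in old BEU, 201980 to 767650 in young CMC and 713459 to 1032104 in young BEU libraries. No coverage exceeded 8015, and a tRNA that reaches this ceiling has few stops recorded 3′ of that base. The ceiling, taken as 7500, was reached by tRNA-Glu-CTC-1-1 in 10 libraries, tRNA-Glu-TTC-3-1 in 9, tRNA-Glu-CTC-2-1 in 4, tRNA-Glu-TTC-1-1 and tRNA-Glu-TTC-2-1 in 2 each, and tRNA-Glu-CTC-5-1 in 0. The last had a highest coverage of only 31 to 756. No molecular identifiers are described, so reads may not be independent molecules.

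The question of the study's design is whether tRNA pseudouridine differs between old and young cells, and the called bases come first. Of 104 T bases, 91 were tested and 13 were not, for coverage. CMC raised the stop rate at 14 of the 91 (15.4%) in old cells, against 20.2% of the T bases of all tRNAs, and at 11 (12.1%) in young cells, against 18.8%. All 11 bases called in young cells were also called in old cells. The 3 called in old cells alone were T20a of tRNA-Glu-CTC-1-1, T27 of tRNA-Glu-CTC-2-1 and T35 of tRNA-Glu-TTC-3-1. Of the 14 bases, 11 lay at positions 13, 32, 54 and 55. With bases below the ceiling in all 12 libraries, 6 of 41 were called in old and 5 in young cells, against 19.7% and 17.8% of all such T bases.

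Among 281 tested bases other than T, edgeR's quasi-likelihood test called 0 at either age, against 0.635% in old and 0.356% in young cells over all tRNAs. An unadjusted p under 0.05 was reached by 50 of them at each age, and an adjusted p under 0.05 by 19 in old and 5 in young cells. Of the 50, only 1 at each age had a mean rise of at least 10 points. These p-values take a change in either direction, and bases that fell with CMC were not counted apart. The 0 calls thus reflect the required size and direction of the change as well as the test. The shares of all tRNAs under these p-value limits alone are not given here. limma called 0 at either age, and DESeq2 called 0 in young and 1 in old cells. That base, chosen after its values were seen, was G28 of tRNA-Glu-CTC-2-1, next to the called T27. Its mean rise was 14.7 points in old cells, with an adjusted p = 0.0643 in edgeR's quasi-likelihood test, and 8.95 points in young cells. Of the 77 T bases called at neither age, 59 had mean rises under 5 points at both ages.

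**Figure D1:**
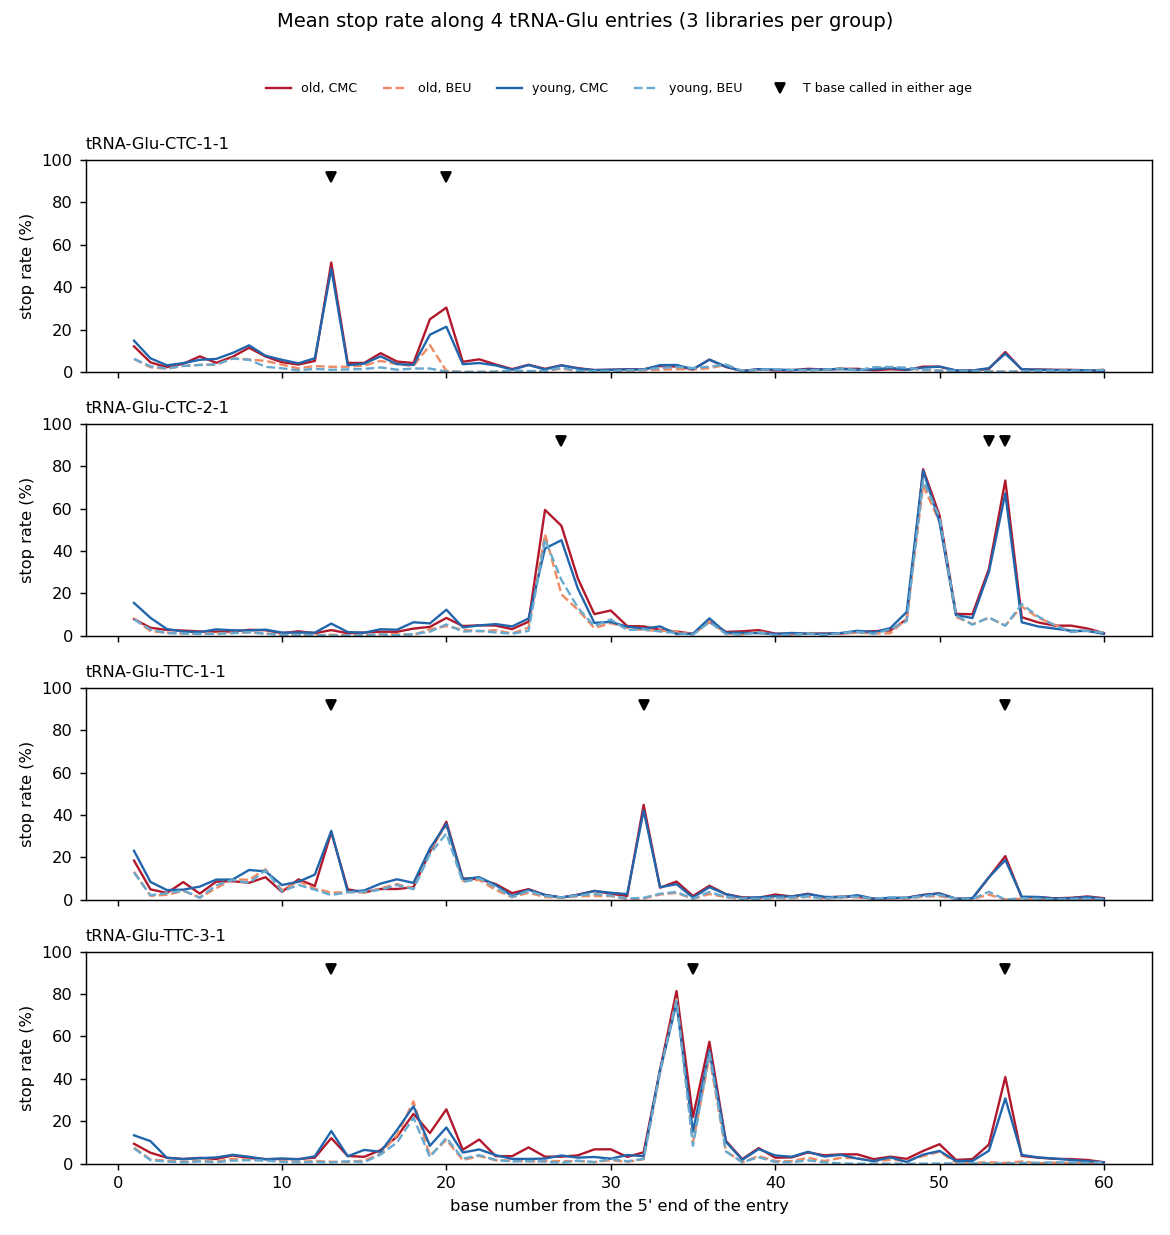
Mean stop rate in percent over 3 libraries per group (y axis) along bases 1 to 60 of 4 tRNA-Glu entries (x axis, base number from the 5′ end), with CMC as solid and BEU as dashed lines and triangles over called T bases. At T13 of tRNA-Glu-CTC-1-1 and T32 of tRNA-Glu-TTC-1-1 the solid lines stand far above the dashed ones, whereas at base 49 of tRNA-Glu-CTC-2-1 and base 34 of tRNA-Glu-TTC-3-1 all 4 lines peak together.

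T13, the D-arm base that PUS7 modifies, was present and tested in all 6 entries and called in 4 of them at both ages. In tRNA-Glu-CTC-1-1 the stop rate was 52.3, 52.3 and 50.1% in old CMC libraries, against 0.0250, 3.36 and 3.85% in old BEU libraries. The young values were 49.9, 47.8 and 48.1% with CMC, against 0.0125, 3.04 and 0.0250% in BEU. Every CMC library was thus far above every BEU library. The mean rise was 49.2 ± 3.04 points in old cells (adjusted p = 0.0196) and 47.6 ± 2.62 points in young cells (adjusted p = 0.0060). The BEU rates below 1% came from libraries at the ceiling, and below it BEU averaged 3.60% over 2 old libraries and 3.04% in 1 young library. Without old replicate 1 or 2 the old call was lost (adjusted p = 0.0511 and 0.0624), and so was the young call without young replicate 1 or 3 (adjusted p = 0.0657 and 0.0668), with rises still at 47.6 and 49.3 points in old and 46.4 and 47.3 points in young cells.

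In tRNA-Glu-TTC-1-1, which stayed below the ceiling at this base, the T13 stop rate was 35.4, 24 and 36.1% in old CMC libraries, against 3.60, 3.21 and 3.31% in old BEU libraries. Those old CMC rates rest on 34 of 96, 12 of 50 and 48 of 133 reads. Young libraries had 27, 31.3 and 39.2% with CMC, against 1.91, 2.82 and 2.04% in BEU. The CMC and BEU groups did not overlap at either age. The mean rise was 28.5 ± 6.66 points in old cells (adjusted p = 8.11e-07) and 30.3 ± 6.22 points in young cells (adjusted p = 2.63e-07).

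In tRNA-Glu-TTC-2-1 the T13 stop rate was 41.5, 37.5 and 43.9% in old CMC libraries, against 4.17, 3.84 and 4.14% in old BEU libraries, and 29, 40.2 and 47.6% in young CMC libraries, against 2.50, 3.70 and 2.66% in young BEU libraries. The mean rise was 36.9 ± 3.08 points in old cells (adjusted p = 4.22e-07) and 36.0 ± 9.25 points in young cells (adjusted p = 2.47e-07). These stops were nearly the same reads as in tRNA-Glu-TTC-1-1, with 34, 12 and 47 in old CMC libraries, so the pair is not independent evidence.

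tRNA-Glu-TTC-3-1 had lower T13 stop rates, at 9.43, 16.2 and 10.7% in old CMC libraries, against 0.481, 0.806 and 1.66% in old BEU libraries. Young libraries had 19.2, 16.4 and 10.7% with CMC, against 1.25, 0.430 and 0.378% in BEU. The rise was 11.1 ± 3.71 points in old cells (adjusted p = 0.000141), just above the minimum of 10, and 14.7 ± 3.94 points in young cells (adjusted p = 1.59e-05). Only 5, 6 and 8 stop reads lie behind the old CMC values, and without old replicate 2 the old rise was 8.98 points.

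T13 of tRNA-Glu-CTC-2-1 and tRNA-Glu-CTC-5-1 was not called. In tRNA-Glu-CTC-2-1 the rise was 2.14 ± 1.28 points in old cells (adjusted p = 0.0188) and 5.59 ± 2.37 points in young cells (adjusted p = 0.00012), so both passed the test but not the minimum size. In tRNA-Glu-CTC-5-1 it was 1.58 ± 0.845 points in old and 1.89 ± 1.79 points in young cells, with 1 stop read, the lowest value in the tables, in every library.

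In the 3 entries with low T13 rises, coverage dropped a few bases 3′ of T13. In the second old BEU library tRNA-Glu-CTC-5-1 had a coverage of 258 at base 13 and 38 at base 18, tRNA-Glu-TTC-3-1 had 248 and 90, and tRNA-Glu-CTC-2-1 had 422 and 208. In the same library tRNA-Glu-CTC-1-1 had 5355 at base 13 and 6844 at base 18, and tRNA-Glu-TTC-1-1 had 655 and 776. In the first 3 entries many reads over T13 thus did not reach base 18. The part of this in their T13 stop rates was not tested.

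The letters TNTAA or TNTAG, which describe the bases around sites of PUS7, were searched on the written strand at bases 11 to 15, with T13 in the middle. All 6 tRNA-Glu entries hold them, against 36 of 213 distinct tRNAs (16.9%). Over all tRNAs 25 T13 bases were tested, 22 with these letters and 3 without. Of the 22, CMC-dependent stops were called at 18 in old and 17 in young cells, and of the 3 without the letters 0 were called. tRNA-Glu-CTC-1-1 had the largest mean rise of the 25 at both ages. Next were tRNA-Asp-GTC-1-1 with 45.2 points in old cells and tRNA-Asp-GTC-2-1 with 43.5 points in young cells. The median over the 6 tRNA-Glu entries was 19.8 points in old and 22.5 points in young cells, against 24.7 and 23 points over the 16 other tRNAs with the letters.

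**Figure D2:**
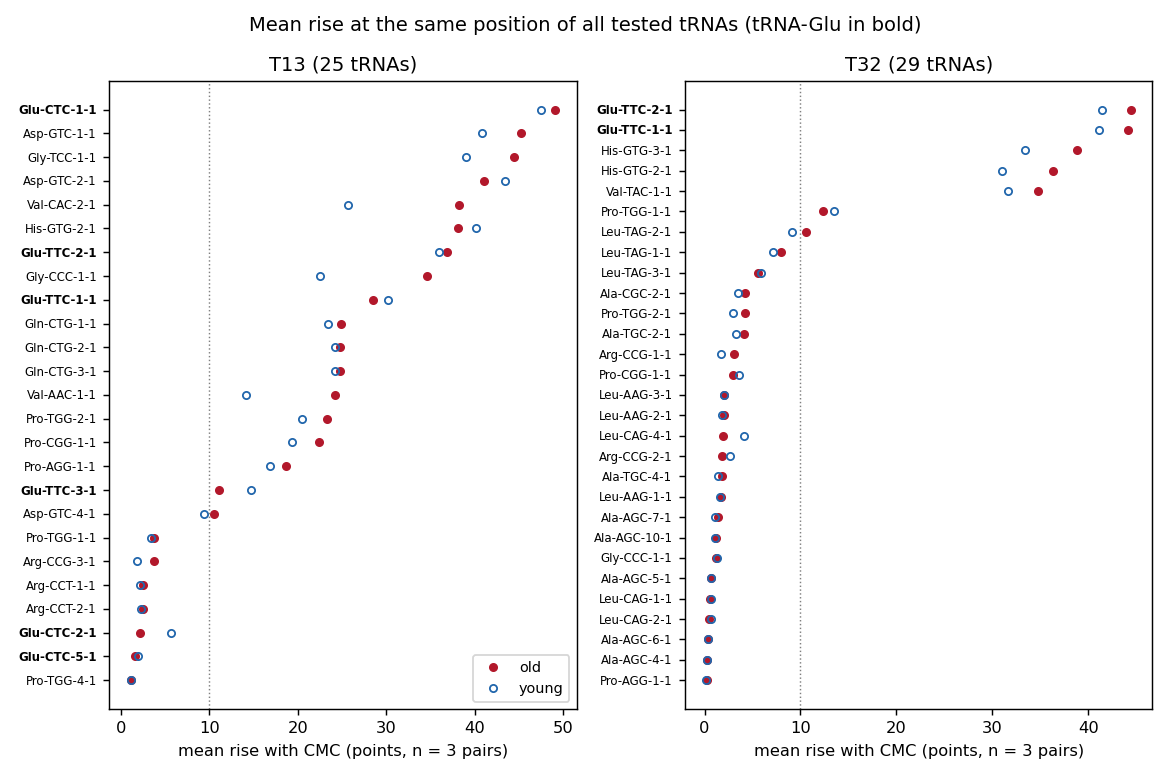
Mean rise with CMC in percentage points (x axis, n = 3 pairs) at T13 of 25 tRNAs and T32 of 29 tRNAs (rows), old as filled and young as open circles, with tRNA-Glu in bold and the 10-point minimum dotted. tRNA-Glu-CTC-1-1 leads at T13 while other tRNA-Glu entries lie throughout the range, and the TTC entries lead at T32, where the median tRNA stood at 2.06 points in old and 2.62 points in young cells.

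T32 lies at the 5′ side of the anticodon loop and was tested in tRNA-Glu-TTC-1-1 and tRNA-Glu-TTC-2-1. tRNA-Glu-CTC-1-1 has C there (C32T between it and tRNA-Glu-TTC-1-1). In tRNA-Glu-TTC-1-1 the stop rate was 44.2, 46 and 44.2% in old CMC libraries, against 0.238, 0.582 and 1.05% in old BEU libraries. Young libraries had 46.5, 39.9 and 39.9% with CMC, against 0.929, 1.1 and 0.895% in BEU. No CMC library came near a BEU library, and the old rates rest on 228 of 516, 133 of 289 and 367 of 831 reads. The rise was 44.2 ± 1.18 points in old cells (adjusted p = 3.05e-07) and 41.1 ± 3.85 points in young cells (adjusted p = 7.23e-07). One old and one young BEU library were at the ceiling here.

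tRNA-Glu-TTC-2-1 held the same 228, 133 and 367 stop reads at T32 in old CMC libraries. Its rise was 44.5 ± 1.40 points in old cells (adjusted p = 1.93e-07) and 41.4 ± 3.20 points in young cells (adjusted p = 4.60e-07). C32 of tRNA-Glu-CTC-1-1 had mean rises of 0.51 points in old and 0.0891 points in young cells. Of the 29 tRNAs with a tested T32, 7 were called in old and 6 in young cells, and both tRNA-Glu entries stood highest. The nearest were tRNA-His-GTG-3-1, with 38.8 points in old and 33.4 points in young cells, tRNA-His-GTG-2-1, with 36.3 and 31.0 points, and tRNA-Val-TAC-1-1, with 34.8 and 31.7 points.

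T55, the base that TRUB1 modifies in the T loop, was tested in 5 entries and called in 4 at both ages. Of the T55 bases of 157 other tRNAs, 84.1% were called in old and 79% in young cells. The letters GTTCNA at positions 53 to 58, read on the written strand, stood in all 5, against 168 of 181 tRNAs with a numbered T loop (92.8%). In tRNA-Glu-CTC-2-1 the stop rate was 74.3, 76.5 and 68.9% in old CMC libraries, against 3.93, 5.50 and 5.32% in old BEU libraries. Young libraries had 73.6, 52.0 and 75.9% with CMC, against 5.10, 5.00 and 4.18% in BEU. This was the highest rise at any tRNA-Glu base, 68.3 ± 4.15 points in old cells (adjusted p = 5.73e-07) and 62.4 ± 13.4 points in young cells (adjusted p = 9.82e-07). The low young value came from the second young CMC library, the 1 library at the ceiling here.

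In tRNA-Glu-TTC-1-1 the T55 stop rate was 19.6, 23.2 and 19% in old CMC libraries, against 0.163, 0.118 and 0.169% in old BEU libraries, and 20.9, 16.4 and 19% in young CMC libraries, against 0.166, 0.152 and 0.164% in young BEU libraries. The rise was 20.5 ± 2.31 points in old cells (adjusted p = 2.81e-08) and 18.6 ± 2.23 points in young cells (adjusted p = 3.65e-08). In tRNA-Glu-TTC-2-1 the CMC rates were 19.7, 21.5 and 18.9% in old and 16.8, 16.9 and 16.5% in young libraries, with rises of 19.8 ± 1.34 points in old and 16.6 ± 0.133 points in young cells. All CMC libraries of both entries stood above all BEU libraries.

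tRNA-Glu-TTC-3-1 had T55 stop rates of 45.2, 48.8 and 28.6% in old CMC libraries, against 0.0752, 0.0753 and 1.16% in old BEU libraries. Young libraries had 45.9, 0.251 and 46.3% with CMC, against 0.126, 0.138 and 0.0752% in BEU. The rise was 40.4 ± 11.4 points in old cells (adjusted p = 0.00474) and 30.7 ± 26.5 points in young cells (adjusted p = 0.0239). At the ceiling were 8 libraries, among them the third old and the second young CMC library, and the CMC libraries below it averaged 47% in old and 46.1% in young cells. Without young replicate 1 or 3 the young call was lost, at rises of 23.2 and 22.9 points (adjusted p = 0.278 and 0.320).

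In tRNA-Glu-CTC-1-1 10 libraries were at the ceiling at T55, which was not called, with rises of 9.26 ± 15.9 points in old cells (adjusted p = 0.405) and 8.49 ± 14.5 points in young cells (adjusted p = 0.399). The CMC libraries below the ceiling, the second old and the third young, had stop rates of 27.7% and 25.3%.

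T54 is methylated to ribothymidine in most tRNAs and is pseudouridine in some. It was tested in 5 entries and called in tRNA-Glu-CTC-2-1 alone, at both ages, while of the T54 bases of 142 other tRNAs 29.6% were called in old and 25.4% in young cells. In tRNA-Glu-CTC-2-1 the stop rate was 32.7, 31.8 and 30.0% in old CMC libraries, against 7.67, 9.03 and 8.86% in old BEU libraries, and 32.1, 26.5 and 31.8% in young CMC libraries, against 8.50, 8.79 and 8.81% in young BEU libraries. No library was at the ceiling. The rise was 23 ± 1.93 points in old cells (adjusted p = 1.41e-05) and 21.4 ± 3.23 points in young cells (adjusted p = 2.44e-05).

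The other entries had smaller T54 rises. In tRNA-Glu-TTC-3-1 the rise was 8.34 ± 1.25 points in old cells (adjusted p = 0.0189), the highest value under the 10-point minimum among bases that passed the test, and 5.92 ± 5.17 points in young cells (adjusted p = 0.0640). In tRNA-Glu-TTC-1-1 it was 8.13 ± 2.11 points in old cells (adjusted p = 0.0963) and 6.81 ± 3.40 points in young cells (adjusted p = 0.209). tRNA-Glu-TTC-2-1 had mean rises of 6.79 and 4.68 points, and tRNA-Glu-CTC-1-1, with 10 libraries at the ceiling, 1.06 and 1.55 points, in old and young cells in that order. In old CMC libraries T54 held the same 297, 171 and 491 stop reads in tRNA-Glu-CTC-2-1, over coverages of 908, 537 and 1634, as in tRNA-Glu-TTC-3-1, over coverages of 3212, 1854 and 5626.

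**Figure D3:**
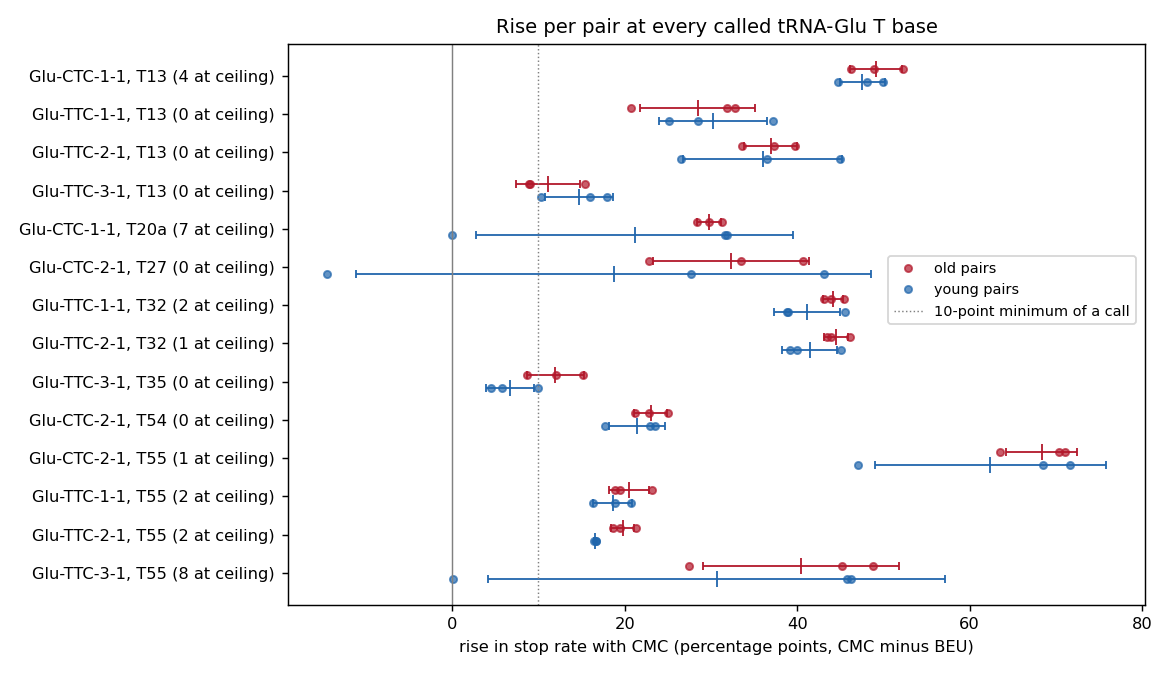
Rise in stop rate with CMC in percentage points (x axis) for each old pair (red) and young pair (blue) at the 14 called T bases (rows, with the number of libraries at the coverage ceiling), with bars for mean ± SD over 3 pairs and the 10-point minimum dotted. Old and young pairs overlap in every row but T55 of tRNA-Glu-TTC-2-1, and the wide young bars at T20a, T27 and T55 of tRNA-Glu-TTC-3-1 come from the second young pair.

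T55 shows how the entries share reads. In the second old CMC library tRNA-Glu-CTC-1-1, tRNA-Glu-CTC-2-1 and tRNA-Glu-TTC-3-1 each held 1775 stop reads at T55. Their coverages were 6398, 2319 and 3636, so the same reads gave stop rates of 27.7%, 76.5% and 48.8%. In the third young CMC library each held 1627 stop reads, over coverages of 6422, 2145 and 3515, giving 25.3%, 75.9% and 46.3%. The stop rate at T55 of these 3 entries thus differed by its denominator.

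Among these entries the same held along the T arm and ended at the bases where the sequences part. Comparisons used bases and libraries with at least 10 stop reads and below the ceiling. Each comparison is 1 base in 1 library. For tRNA-Glu-CTC-1-1 only 2 libraries could be compared at bases 36 to 60, and 4 at bases 34 and 35. At bases 49 to 60, tRNA-Glu-CTC-1-1 and tRNA-Glu-CTC-2-1 agreed within 2 stop reads in 24 of 24 comparisons, with 6048 stop reads in each. At bases 7 to 48 they did so in 0 of 196 comparisons. The step lies at base 49, where C49T separates them. tRNA-Glu-CTC-1-1 and tRNA-Glu-TTC-3-1 agreed in 34 of 34 comparisons at bases 34 to 48, with 2949 stop reads in each, and in 0 of 63 at bases 19 to 33, where tRNA-Glu-CTC-1-1 held 18051 and tRNA-Glu-TTC-3-1 217. Here the step lies at base 34, the site of C34T. tRNA-Glu-CTC-2-1 and tRNA-Glu-TTC-3-1 agreed in 54 of 54 comparisons at bases 49 to 60, with 18307 stop reads in each, and in 0 of 132 at bases 34 to 48.

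tRNA-Glu-TTC-1-1 and tRNA-Glu-TTC-2-1, which differ at C6T and G66A, agreed within 2 stop reads in 130 of 135 comparisons at bases 19 to 33 (96.3%), 97 of 121 at bases 1 to 18 (80.2%) and 20 of 92 at bases 49 to 60 (21.7%). Agreement was 0 of 4 at base 5 and 6 of 6 at base 6, the site of C6T. It was 9 of 9 at base 37 but 3 of 6 at base 38, where the sequences do not differ. The deposited values thus hold equal stop reads in near-identical entries over long stretches. The rates at T54 and T55 of the first 3 entries, and at T13 and T32 of the TTC pair, are therefore uncertain as values of a single tRNA. The sources used here do not give the rule by which the authors assigned such reads.

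**Figure D4:**
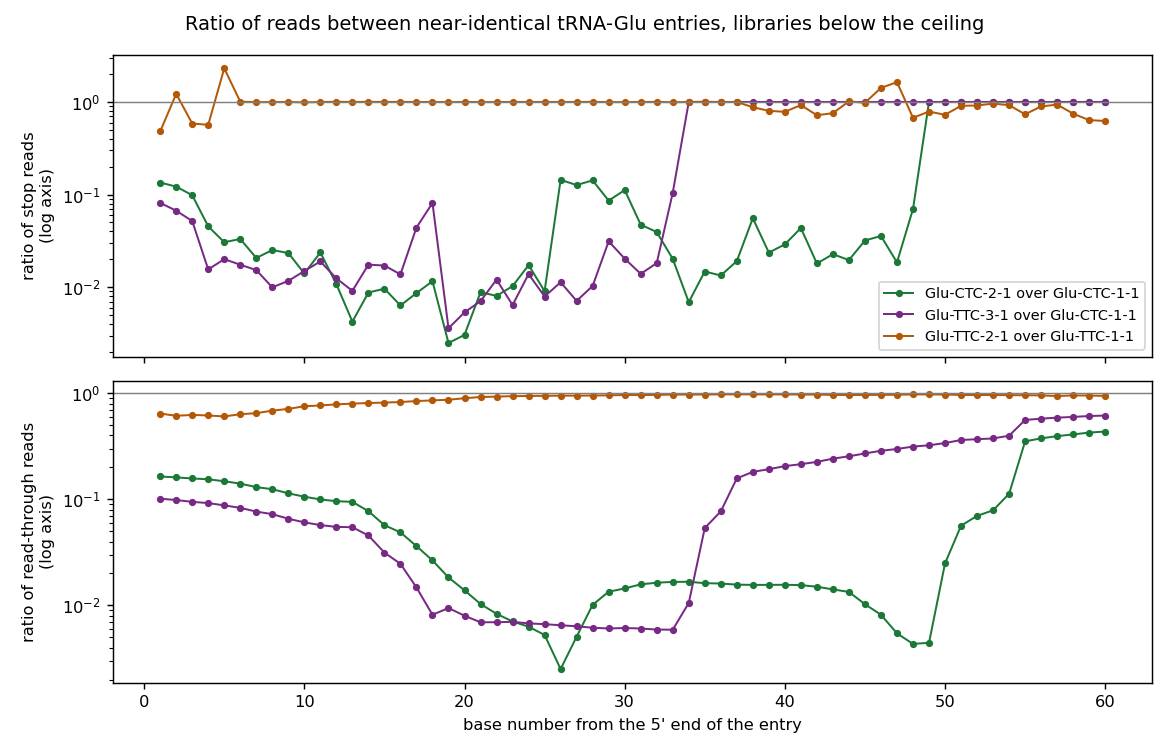
Ratio of stop reads (upper panel) and of read-through reads, coverage minus stops (lower panel), between 3 pairs of tRNA-Glu entries by base number from the 5′ end, on log axes, over libraries below the coverage ceiling. The stop-read ratio of tRNA-Glu-CTC-2-1 over tRNA-Glu-CTC-1-1 lies far below 1 up to base 48 and at 1 from base 49, and that of tRNA-Glu-TTC-3-1 over tRNA-Glu-CTC-1-1 steps to 1 at base 34.

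Of the 5 highest stop rates without CMC, 2 lay at such bases and 1 next to one. BEU libraries averaged 77.7% in old and 77.0% in young cells at T34 of tRNA-Glu-TTC-3-1, the site of C34T. They averaged 70.8% in old and 73.3% in young cells at base 49 of tRNA-Glu-CTC-2-1, the site of C49T, and 53.7% and 56.0% at the G next to it on the 3′ side. The other 2 lay neither at such a base nor next to one. At C36 of tRNA-Glu-TTC-3-1 they averaged 50.4% in old and 52.5% in young cells, and at base 54 of tRNA-Glu-CTC-5-1, the first row after the bases its rows skip, 78.3% in old and 76.2% in young cells. C36 lies in the stretch where tRNA-Glu-TTC-3-1 and tRNA-Glu-CTC-1-1 held equal stop reads. In the 2 libraries compared there, both with CMC, each entry had 748 stop reads. Read-through reads were 613 in tRNA-Glu-TTC-3-1 and 7960 in tRNA-Glu-CTC-1-1. T34 of tRNA-Glu-TTC-1-1, the wobble base of the same anticodon, had only 3.27% in old and 3.70% in young BEU libraries.

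Over all tRNAs, 136 bases were the first from the 3′ end to differ from another entry that matches over at least 16 bases there. The rest of their sequences need not match. Of these bases, 15 (11%) stopped on average 20% or more of the reads in BEU libraries, against 150 of 5552 other bases (2.70%). The medians were 3.96% and 1.63%. These shares describe the tables and were not tested.

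T35, the middle anticodon base, was called in tRNA-Glu-TTC-3-1 in old cells alone. Its stop rate was 21.2, 25.6 and 19.3% in old CMC libraries, against 9.15, 10.4 and 10.7% in old BEU libraries, a rise of 12 ± 3.28 points (adjusted p = 0.00245). Young libraries had 11.6, 15 and 19.1% with CMC, against 7.03, 9.22 and 9.19% in BEU, a rise of 6.73 ± 2.82 points (adjusted p = 0.0224) that is under the minimum size. T35 lies next to the site of C34T, and its 91 and 66 stop reads in the first and second old CMC libraries equalled those of tRNA-Glu-CTC-1-1. There T35 had stop rates of 1.25, 1.64 and 0.838% in old CMC libraries and mean rises of 0.123 points in old and -0.601 points in young cells. In tRNA-Glu-TTC-1-1 the T35 rise was 1.33 points in old and 0.541 points in young cells. T33, next to the anticodon, and T34 were called in no tested tRNA-Glu entry at either age.

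T27, at the start of the anticodon stem, exists among these entries in tRNA-Glu-CTC-2-1 alone and is itself the site of C27T. Its stop rate was 45.1, 63.9 and 46.7% in old CMC libraries, against 11.7, 23.2 and 23.9% in old BEU libraries. The rise was 32.3 ± 9.01 points in old cells (adjusted p = 0.0160). Young libraries had 50.6, 25.9 and 58.8% with CMC, against 23, 40.4 and 15.7% in BEU, a rise of 18.8 ± 29.9 points (adjusted p = 0.177). The second young pair ran the other way, at -14.5 points. Without young replicate 2 the young rise was 35.4 points and called (adjusted p = 0.0081), and without old replicate 1 or 2 the old call was lost at rises of 31.7 and 28.1 points (adjusted p = 0.0853 and 0.0759).

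The D loop, named for its dihydrouridine, has T at positions 20 and 20a in most of the entries. In tRNA-Glu-TTC-1-1 the T20a stop rate was 34.4, 40 and 36.0% in old CMC libraries, against 33, 36.6 and 36.0% in old BEU libraries, and 37.0, 37.6 and 32.8% in young CMC libraries, against 30.6, 32.2 and 31.1% in young BEU libraries. Stops here were thus frequent without CMC, and the CMC and BEU groups overlapped in old but not in young cells. The rise was 1.65 ± 1.70 points in old cells (adjusted p = 0.722) and 4.53 ± 2.50 points in young cells (adjusted p = 0.353). T20 of the same entry stopped at 22.8, 21.3 and 23.9% in old CMC libraries, against 22.9, 23.8 and 24.1% in old BEU libraries, with rises of -0.934 ± 1.32 points in old and 2.68 ± 1.23 points in young cells.

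T20a of tRNA-Glu-CTC-1-1 was called in old cells, with stop rates of 29.9, 31.3 and 29.8% in CMC libraries, against 0.10, 0.050 and 1.39% in BEU libraries, and a rise of 29.8 ± 1.40 points (adjusted p = 0.0091). In young cells the rates were 31.9, 0.0875 and 32% with CMC, against 0.225, 0.137 and 0.188% in BEU, a rise of 21.2 ± 18.4 points (adjusted p = 0.0631). All 6 BEU libraries and the second young CMC library, all with low rates, were at the ceiling at this base. The BEU rate of this base thus has no measurement below the ceiling. Without young replicate 2 the young rise was 31.8 points and called (adjusted p = 0.000912), and without old replicate 1 or 2 the old call was lost at rises of 29.8 and 29.1 points (adjusted p = 0.0694 and 0.0722). T20 of tRNA-Glu-CTC-1-1, with 7 libraries at the ceiling, had rises of 12.2 ± 13.6 points in old cells (adjusted p = 0.354) and 15.9 ± 14.6 points in young cells (adjusted p = 0.208), and was not called.

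**Figure D5:**
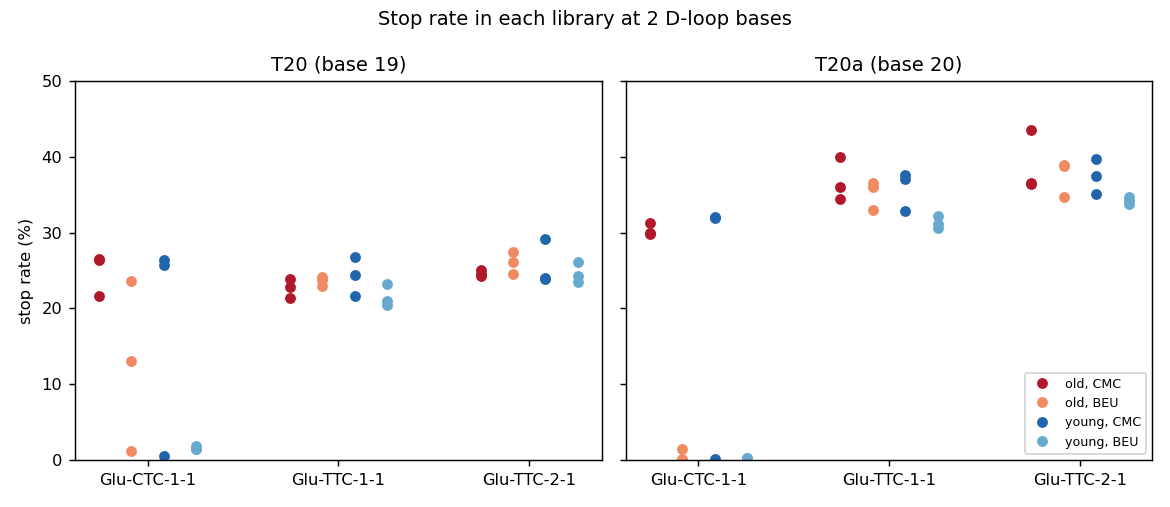
Stop rate in percent in each library (y axis) at T20 and T20a of 3 tRNA-Glu entries (x axis), by age and by CMC or BEU. In the TTC entries BEU libraries stop at rates near those of CMC libraries, and in tRNA-Glu-CTC-1-1 the T20a values near 0 are those of the 7 libraries at the coverage ceiling.

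The age comparison tested the rise of old cells against that of young cells at the 14 tRNA-Glu T bases with a mean rise of at least 10 points over both ages. This set holds T20 of tRNA-Glu-CTC-1-1 and leaves out T35 of tRNA-Glu-TTC-3-1, and is otherwise that of the called bases. edgeR's quasi-likelihood test called 0 of the 14, against 0% of 439 such bases over all tRNAs, and 0 had an unadjusted p under 0.05. The lowest unadjusted p was 0.115, with an adjusted p of 0.999. limma and DESeq2 also called 0, with lowest unadjusted p-values of 0.132 and 0.0725. The rise was higher in old cells at 11 of the 14 bases, and at 290 of the 439, with a median difference of 2.45 points against 1.39 points. Missing the threshold does not show that the ages are alike.

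The largest differences, old minus young, were 13.6 ± 18 points (SE) at T27 of tRNA-Glu-CTC-2-1, 9.75 ± 16.6 at T55 of tRNA-Glu-TTC-3-1, 8.68 ± 10.6 at T20a of tRNA-Glu-CTC-1-1 and 5.93 ± 8.11 at T55 of tRNA-Glu-CTC-2-1. Each had an SE larger than the difference, and in each the second young pair was the lowest of the 6. At T55 of tRNA-Glu-TTC-2-1 the difference was 3.22 ± 0.777 points (SE), and there alone the pairs of the ages did not overlap, against 13% of the 439 bases. At the other end stood T20 of tRNA-Glu-CTC-1-1, with -3.72 ± 11.5 points (SE), T13 of tRNA-Glu-TTC-3-1, with -3.62 ± 3.13, and T13 of tRNA-Glu-TTC-1-1, with -1.79 ± 5.26. T13 differed by 0.931 ± 5.63 points (SE) in tRNA-Glu-TTC-2-1 and by 1.59 ± 2.32 points (SE) in tRNA-Glu-CTC-1-1. T32 differed by 3.03 ± 2.32 points (SE) in tRNA-Glu-TTC-1-1 and by 3.03 ± 2.02 points (SE) in tRNA-Glu-TTC-2-1.

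Averaged over the entries of this set at each position, the rise at T13 was 31.4 ± 1.52 points in old and 32.1 ± 2.71 points in young cells. At T32 it was 44.3 ± 1.28 points in old and 41.3 ± 3.52 points in young cells, at T54 23 ± 1.93 and 21.4 ± 3.23, and at T55 37.3 ± 4.61 and 32.1 ± 10.4. In exact two-sided permutation tests of 6 positions or position groups the lowest p was 0.3, at T32, with adjusted p-values of 0.96 to 1. With 3 pairs against 3 such a test cannot go below 0.1. Without young replicate 2 the difference turned to -0.835 points at T55 and -0.251 points at T54. At T13 it turned from -0.722 points to positive with summed counts (1.15), all entries (0.105), without old replicate 2 (0.133) and without young replicate 3 (0.776).

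Stop rates without CMC were also compared between the ages. edgeR's quasi-likelihood test called 0 of the 46 tRNA-Glu bases that stopped 5% or more of reads on average in BEU libraries, against 0.336% over all tRNAs, and 0 had an unadjusted p under 0.05. limma and DESeq2 also called 0, and the lowest unadjusted p in edgeR was 0.138.

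The amount of each tRNA was compared over the BEU libraries from its highest coverage. edgeR's quasi-likelihood test called 0 of the 6, against 0% of the 213 tRNAs, and DESeq2 also called 0. An unadjusted p under 0.05 was reached by 1 of the 6, against 5.63% of the 213, which was tRNA-Glu-CTC-5-1, with 446, 515 and 455 CPM (counts scaled to the library) in old cells, against 604, 663 and 612 in young cells. These groups did not overlap, as in 11.7% of the 213 tRNAs, with a log2 fold change of -0.41 (adjusted p = 0.681 in edgeR's quasi-likelihood test). The log2 fold change was -0.13 in tRNA-Glu-CTC-2-1, 0.14 in tRNA-Glu-TTC-1-1 and 0.17 in tRNA-Glu-TTC-2-1. Each of these had 2 of the 6 BEU libraries at the ceiling, the first old and the third young. In those libraries 103 and 98 of the 213 tRNAs were at the ceiling, and the scaling to CPM of every entry uses these values. tRNA-Glu-CTC-1-1 and tRNA-Glu-TTC-3-1 both had 0.61, but all 6 BEU libraries were at the ceiling there. In these bulk libraries, fewer cells of a type and less RNA per cell cannot be told apart.

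Between the anticodons, the rise was averaged over all tested CTC and all tested TTC entries in each of the 6 pairs. At T13 it was 18 points in CTC and 26.2 points in TTC entries, a difference of -8.26 points. The CTC average includes tRNA-Glu-CTC-5-1, whose 1 stop read per library leaves its rise to its coverage. At T55 the rise was 37.1 points in CTC and 24.4 points in TTC entries, a difference of 12.7 points, and the difference was 4.98 points at T54 and -3.66 points at T35. At T54 and T55 tRNA-Glu-CTC-1-1, tRNA-Glu-CTC-2-1 and tRNA-Glu-TTC-3-1 hold the same stop reads below the ceiling, and tRNA-Glu-CTC-1-1 was at the ceiling in 10 libraries. At T35 the same holds for tRNA-Glu-CTC-1-1 and tRNA-Glu-TTC-3-1. The same stop reads thus stand on both sides of these differences, and no test of them is given. T20 and T20a, where tRNA-Glu-CTC-1-1 had 7 libraries at the ceiling, differed by 13.7 points (4 of 6 pairs) and 12.8 points (5 of 6 pairs), with adjusted p = 0.125 and 0.075 in an exact two-sided sign-flip test.

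The differences also depend on which entries stand for an anticodon. With tRNA-Glu-CTC-1-1 minus tRNA-Glu-TTC-1-1 alone, a comparison added after seeing the data, the difference turned to 19 points at T13, -6.16 points at T54 and -10.7 points at T55, and at T35 it was -1.17 points. A coverage minimum of 50 left 1 CTC base at T13 and gave the same 19 points, so it adds nothing to that comparison. At T13 the difference was 13.1 points with all entries, where tRNA-Glu-CTC-1-1 counts 9 times. With counts summed over entries it was 17.7 points. The direction between the anticodons at T13, T54 and T55 is thus not settled by these values.

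Against the other tRNAs, the T13 rise averaged 22.1 points in the 6 tRNA-Glu entries and 21.1 points in 19 others, a difference of 0.985 points (adjusted p = 0.5, exact sign-flip test over 6 pairs, 3 in its direction). It became 16.6 points with a coverage minimum of 50, 5.2 points with all entries and 17.6 points with summed counts, all past the threshold, and -1.44 points below the ceiling. T55 averaged 29.5 points in 5 tRNA-Glu entries and 34.7 points in 157 others, a difference of -5.18 points (5 of 6 pairs, exact sign-flip test, adjusted p = 0.125), which passed with all entries (-14.4 points) and summed counts (-9.74 points). At T54 the averages were 8.77 points in 5 tRNA-Glu entries and 12.4 points in 142 others, a difference of -3.63 points (6 of 6 pairs, exact sign-flip test, p = 0.03125, adjusted p = 0.125 over the 4 positions compared). That difference passed with a coverage minimum of 50 (-3.66 points), all entries (-5.66 points) and summed counts (-5.89 points). An exact sign-flip test over 6 pairs cannot give p under 0.03125, which T54 already had. The T54 passes thus came from the number or the p-values of the other positions compared. With all entries tRNA-Glu-CTC-1-1 counts 9 times, and with summed counts the entries weigh by their coverage. At T54 and T55 that entry was at the ceiling in 10 libraries. Its part in these passes was not tested. Below the ceiling, where 1 tRNA-Glu base remains, the T54 difference turned to 6.41 points. The remaining comparison, T27 of tRNA-Glu-CTC-2-1 against positions 27 and 28 of other tRNAs, had a difference of 4.60 points (adjusted p = 0.625, exact sign-flip test). No tRNA-Glu entry with rows at positions 38 and 39, which PUS3 modifies, has T there.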

How the data were processed

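The 6 tables that the authors deposited each hold 1 BEU and 1 CMC library. Per the file headers, coverage is a count of reads per base, the stop reads are a read signal per base, and the stop rate is their percent. The deposited rate equalled the quotient in every row, and the lowest coverage and stop value is 1. Bowtie, Bowtie2 2.3.5 and mm10 are named in the submitters' processing notes, which give no roles. The sources used here do not give the rule for reads that match several entries. Per the labels' protocols, small RNA was demethylated with AlkB enzymes, incubated in BEU buffer that did or did not hold CMC, put through alkaline carbonate buffer, ligated and reverse transcribed.

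Stop and read-through counts were tested as pairs with edgeR 4.0.16 in R 4.3.3 (quasi-likelihood, 1 coefficient for each library, 1 log-odds coefficient for each group, no dispersion trend), over all distinct tRNAs, with T and other bases adjusted separately. Values averaged over entries were compared by exact tests in Python 3.11.15. Scripts were tested on simulated data. Alternatives were coverage minimums of 50, 10 and 1, 1 subtracted from the values, limma 3.58.1, DESeq2 1.42.0, all entries, counts summed over entries, bases below the ceiling, a replicate block and leaving out each replicate.

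Named were all tRNA-Glu bases called at either age, uncalled T bases at positions 13, 20, 27, 28, 32, 35, 38, 39, 54 and 55 of the best covered entry of each anticodon, the 5 highest and 5 lowest age differences, and the 5 highest BEU stop rates. The members, lists and rules were chosen with earlier results of these data known. A rise sets the CMC and BEU libraries of 1 deposited table, which share a replicate number, against each other. Over 1179 T bases the deviations of the CMC and BEU libraries of 1 table correlated between -0.376 and 0.208. Libraries with the same number but of different age correlated between -0.515 and 0.313, so edgeR was run without a replicate block. Mean rises do not depend on the pairing within a table, but their SD and the counts of pairs do. The coordinates of the genes were not used here, and the sequences of 3 entries with a called base are not reported here.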

Additional observations from a re-analysis of the deposited data

How the results depend on the processing

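The count of called tRNA-Glu T bases, 14 in old and 11 in young cells, was 45 and 33 with all entries, where copies repeat, and 6 and 5 below the ceiling, where fewer bases are tested. It ran from 10 to 14 in old and from 9 to 16 in young cells when 1 replicate was left out, the 16 being without young replicate 2. The age tests called 0 under every alternative run. The fit with the replicate block gave 14 and 11 calls and 0 for age. That block joins equal replicate numbers over both ages, and the rule that the 3 pairs all rose was kept. The effect of the pairing on the calls was thus not tested. The exact tests of the old minus young rises cannot fall below 0.1, so none could pass 0.05 under any alternative. These rises were 0.105 points with all entries and 1.15 with summed counts at T13, against -0.722. With 1 replicate left out they ran from -1.86 to 0.776 at T13, -7.04 to 7.29 at T20 and T20a, -3.09 to 25.7 at T27, 1.90 to 5.06 at T32, -0.251 to 2.69 at T54 and -0.835 to 8.30 at T55. CTC minus TTC at T13 turned to 13.1 points with all entries, 17.7 with summed counts and 19 with 1 entry each. A coverage minimum of 50 left 1 CTC base there and gave the same 19 points. With all entries, summed counts and 1 entry each CTC minus TTC was -3.56, -3.62 and -6.16 at T54, and -8.69, -3.38 and -10.7 at T55, all reversed, and -3.21, -3.82 and -1.17 at T35. At T20a it passed with a minimum of 10 (10.5 points) and below the ceiling (2.74 points, from 1 CTC base). Without 1 replicate these ran from -8.91 to -7.66 at T13, 11.5 to 17.3 at T20, 12 to 15.6 at T20a, -4.01 to -3.32 at T35, 4.51 to 5.45 at T54 and 11 to 13.9 at T55. tRNA-Glu minus other tRNAs passed the threshold at T13 with a minimum of 50 (16.6 points), all entries (5.2) and summed counts (17.6), and below the ceiling it was -1.44. At T54 it passed with a minimum of 50 (-3.66), all entries (-5.66) and summed counts (-5.89), and was 6.41 below the ceiling, from 1 base. The T54 passes came from the number or the p-values of the other positions compared. With all entries tRNA-Glu-CTC-1-1, which reached the ceiling in 10 libraries, counts 9 times. At T55 tRNA-Glu minus other tRNAs passed with all entries (-14.4) and summed counts (-9.74). Without 1 replicate it ran from 0.512 to 1.69 at T13, 1.07 to 12.4 at T27, -3.90 to -3.37 at T54 and -6.50 to -3.99 at T55. Of 398 alternatives at named bases, 384 kept the direction and the call, 12 lost the call, 2 gained it and 0 reversed. One lost call was T13 of tRNA-Glu-TTC-3-1 in old cells with 1 subtracted (9.73 points). The cause of these changes in value or call was not tested.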
